A study of Mus musculus with 21 samples.

Results

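H2Bub1, histone H2B carrying a single ubiquitin, was compared between mouse J1 embryonic stem (ES) cells with raised and with lowered Fbxl19. The members are all 7216 domains of the combined H2Bub1 list of a clone that overexpresses Fbxl19 (OE-high) and all 1813 domains of the combined list of Fbxl19 knockdown (KD) cells, 9029 of the 42669 lines in the 8 lists of the series. Domains that overlapped by at least 1 bp were joined into 7185 regions, each listed in OE-high only, in both, or in KD only.

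The OE-high cells are a J1 ES clone selected for carrying over 5-fold the endogenous amount of Fbxl19 with a flag-biotin tag, with 3 H2Bub1 samples. The label of the third names no list. The KD cells are J1 ES cells with Fbxl19 knocked down, with 2 H2Bub1 samples. The sources used here do not give the means of knockdown or the level of Fbxl19 left. Both kinds of cell were undifferentiated, and the growth protocol gives medium with serum and leukemia inhibitory factor on gelatin. H2Bub1 was precipitated with the same antibody in both. Other lists served as landmarks: H2Bub1 in ES cells with neither change (3 samples), tagged Fbxl19 in the OE-high clone (2 samples) and in a clone below the endogenous level (OE-low, 2 samples), and Rnf20 (1 sample). The OE-low and Rnf20 cells are labelled as containing BirA, a biotin ligase. Effects of selecting 1 clone and of Fbxl19 itself cannot be told apart here.

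Rnf20 is the ligase that attaches ubiquitin to H2B, a modification laid down over transcribed genes as RNA polymerase passes. Fbxl19 is an F-box protein whose CXXC zinc finger binds unmethylated CpG, the state of most CpG islands at promoters. The title of the series concerns recruitment of Rnf20 to these islands by Fbxl19, and its effect on H2Bub1.

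The track lines of the OE-high and KD lists carry the same number, 46 with the suffix M, and the headers do not say what it counts. That of the ES list carries 60, so comparisons with the ES list are not matched on this number. Depth per sample is unknown. Each list is combined over samples, so there was no spread between samples to set a difference against, and no p-values were computed. Intervals are exact Clopper-Pearson 95% intervals for shares, order-statistic 95% intervals for medians and exact Poisson 95% intervals for densities. They cover counting error in domains only, since neighbouring domains of 1 list are not replicates. Each comparison is therefore between 2 lists. The ES label was not checked against marker genes, since the lists hold no expression values.

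The number of KD domains relative to OE-high domains was uneven across chromosomes. OE-high had 1.64 domains for each KD domain on chromosome 1, 1.97 on chromosome 11 and 2.81 on chromosome 17, against a median of 5.16 over the 19 autosomes and a highest value of 7.22 on chromosome 14. Those 3 chromosomes, singled out after their values were seen, held 755 of the 1813 KD domains and 1504 of the 7216 OE-high domains. Of their OE-high domains, 43.9% (interval 41.4 to 46.5) met a KD domain, against 17.8% (interval 16.8 to 18.8) on the other autosomes. High numbers on chromosomes 1 and 11 were not particular to KD. The ES list was also largest on chromosomes 11 (407 domains) and 1 (349), followed by chromosome 4 (259), with 172 on chromosome 17. The part of the uneven KD to OE-high numbers in the results below was not tested beyond leaving chromosomes 1, 11 and 17 out.

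**Figure D1:**
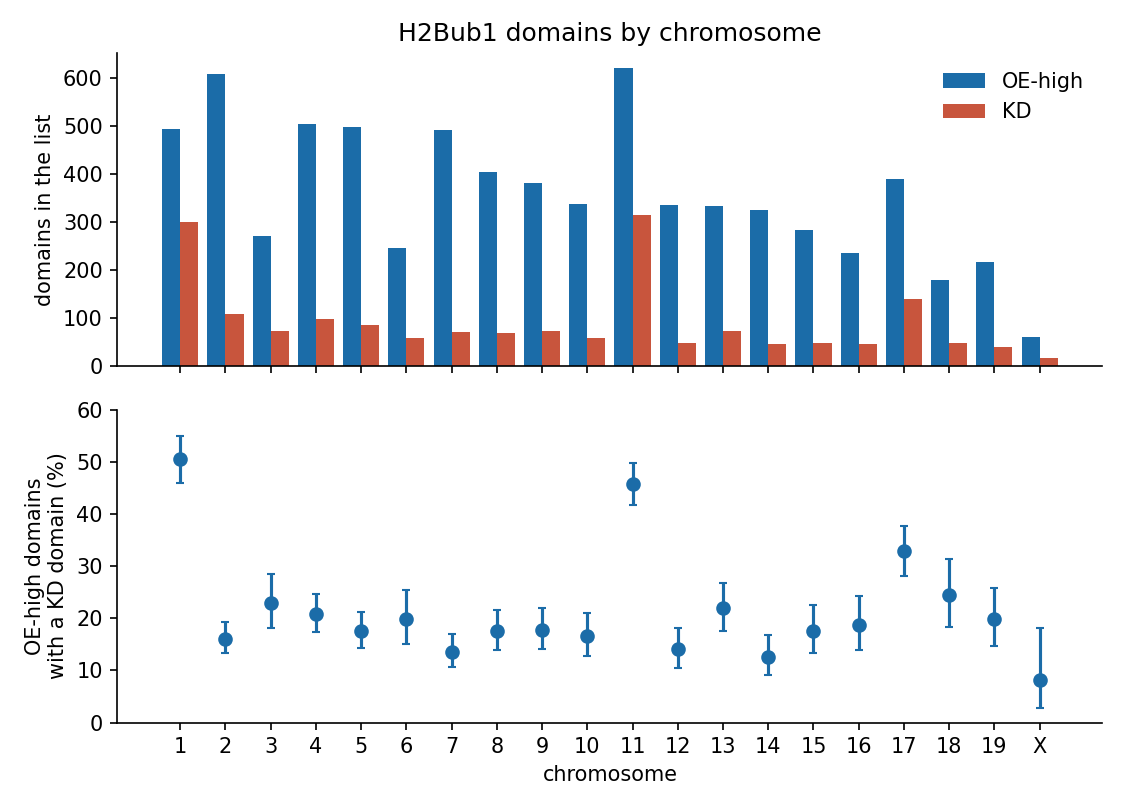
Number of H2Bub1 domains in the OE-high and KD lists on each chromosome (top), and the percent of OE-high domains that overlap a KD domain with exact 95% intervals (bottom). KD domains are most numerous on chromosomes 1 (301) and 11 (315), where 50.5% and 45.7% of OE-high domains had a KD counterpart.

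Nearly all H2Bub1 domains of the KD cells were also listed in OE-high cells, while most OE-high domains had no KD counterpart. Of the 1813 KD domains, 1689 (93.2%, interval 91.9 to 94.3) had an OE-high domain over them. Of the 7216 OE-high domains, 1671 (23.2%, interval 22.2 to 24.1) overlapped a KD domain. By sequence, 86.0% of the bases in KD domains lay in OE-high domains and 14.7% of the bases in OE-high domains lay in KD domains. For scale, OE-high domains covered 9.59% and KD domains 1.64% of the span of both lists. OE-high had 3.98 times as many domains and 5.86 times the covered length. With the OE-high list limited to its 1813 highest-scoring domains, 53.5% of KD domains and 50.5% of OE-high domains were shared, so the first 2 shares depend on list size. Over 19 autosomes the share of KD domains found in OE-high ran from 86.2% on chromosome 6 to 98.6% on chromosome 8. On the X chromosome it was 5 of 16 domains (31.2%, interval 11.02 to 58.7).

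Among the 7185 regions, 5545 (77.2%) were listed only in OE-high, 1516 in both and 124 (1.73%) only in KD. Regions listed in both were the longest, with a median of 30000 bp (interval 28200 to 31800). OE-high-only regions had a median of 20400 bp (interval 19600 to 21000) and KD-only regions 1700 bp (interval 1000 to 2800). The classes thus differed most at the short end: 63 of the 124 KD-only regions (50.8%, interval 41.7 to 59.9) were under 2 kb, compared with 184 of the OE-high-only and 14 of the shared regions.

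**Figure D2:**
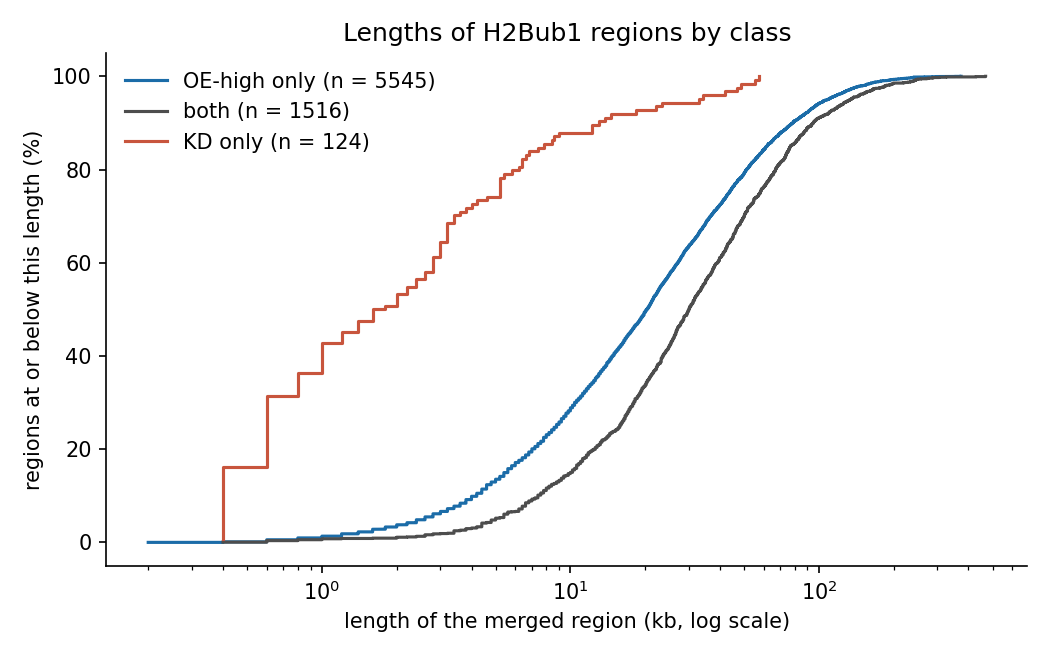
Cumulative percent of merged regions (vertical axis) by length in kb on a log axis, for the 5545 regions listed only in OE-high, the 1516 in both and the 124 only in KD. The KD-only curve lies far to the left, its median being 1700 bp, and those of the others 20400 bp and 30000 bp.

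Which OE-high domains were also listed in KD cells went with their score, the authors' value for each domain. In the lowest quartile of OE-high scores 108 of 1804 domains (5.99%, interval 4.94 to 7.18) met a KD domain. The next quartiles gave 13.1% and 23.0%, and the highest gave 912 of 1804 (50.6%, interval 48.2 to 52.9). Length separated them less, from 15.7% (interval 14.04 to 17.4) in the shortest quartile to 27.1% (interval 25.1 to 29.2) in the longest. In the KD list the score did not order the domains in this way, with 92.3% found in OE-high in the lowest quartile, 96.0% in the third and 89.0% (interval 85.7 to 91.7) in the highest. KD length did: 63.2% (interval 55.5 to 70.4) of KD domains under 2 kb were found in OE-high, and 99.1% (interval 96.8 to 99.9) of those of 50 kb or more.

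Domains of the ES list, in which Fbxl19 was not altered, were most frequent in shared regions and least frequent in OE-high-only regions. An ES domain was present in 1326 of the 1516 shared regions (87.5%, interval 85.7 to 89.1), in 1075 of the OE-high-only regions (19.4%, interval 18.3 to 20.5) and in 67 of the KD-only regions (54.0%, interval 44.9 to 63.0). So 4470 regions were listed only in OE-high and in neither other ES list, and 57 only in KD. The part in these counts of the unlike track line number of the ES list (60 against 46) was not tested. OE-high-only regions with an ES domain were longer (median 27600 bp, interval 25200 to 30000) than those without (18600 bp, interval 17600 to 19600).

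Where both lists had a region, it was usually longer in OE-high, unless it was already long in KD. The summed OE-high length had a median of 28500 bp and the summed KD length 12400 bp, with a median ratio of 1.47 (interval 1.39 to 1.54) and an interquartile range of 1.01 to 3.25. At a 1.5-fold limit, 743 of 1516 shared regions (49.0%) were longer in OE-high, 70 (4.62%) were longer in KD and 703 lay between. With lists of the same size the median ratio was 1.13. On chromosomes 1, 11 and 17 the median ratio was 1.29 (interval 1.20 to 1.41) and on the others 1.57 (interval 1.47 to 1.67).

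Since the KD length is part of that ratio, regions were also classed by their length in the ES list, which does not enter it. There were 990 shared regions with 1 domain in each of the 3 lists. Ratios of OE-high to KD length had a median of 2.17 (interval 1.83 to 3.05) where the ES domain measured 2 to 5 kb, 2.02 at 5 to 10 kb, 1.40 at 10 to 20 kb and 1.16 (interval 1.09 to 1.21) at 20 to 50 kb. At 50 kb or more the median was 1.00 (interval 0.991 to 1.02, 114 regions). The short domains of the ES list were thus those with the larger ratios, apart from the 23 under 2 kb, which had 1.5 (interval 1 to 2.2). In the 990 regions the median length was 11100 bp in KD, 11800 bp in ES and 23900 bp in OE-high. OE-high was the longest of the 3 in 646 regions (65.3%, interval 62.2 to 68.2), whereas KD was shorter than ES in 460 and longer in 469. The median ratio of OE-high to ES length was 1.34 (interval 1.29 to 1.43), and that of ES to KD length was 1 (interval 0.994 to 1).

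Without matching for length, Fbxl19 peaks did not separate the shared regions that were longer in OE-high from the rest. Of the 1234 shared regions with an OE-high Fbxl19 peak, 603 (48.9%, interval 46.0 to 51.7) were at least 1.5 times as long in OE-high, and of the 282 without a peak 140 (49.6%, interval 43.7 to 55.6) were. Both are near the 49.0% of all shared regions. The median ratio was 1.47 in each set. KD lengths differed, with a median of 14000 bp with a peak and 8400 bp without. The ratio fell with KD length, from 3.25 at 2 to 5 kb to 0.984 at 50 kb or more. An ES domain did separate the regions longer in OE-high, with 46.7% (interval 44.0 to 49.4) of regions with one and 65.3% (interval 58.0 to 72.0) of the 190 without one. Their KD medians were 13300 bp and 8400 bp. Neither pair of sets was compared at equal KD length.

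Where OE-high had the most added sequence, short KD domains overlapped very long OE-high domains. On chromosome 14 a KD domain of 5600 bp at 12385400 to 12390999 (mm9) lay at the left end of an OE-high domain of 428400 bp that ran from 12386000 to 12814399, and the region held 1 OE-high Fbxl19 peak, 1 Rnf20 peak and 1 ES domain. On chromosome 2 a KD domain at 37275200 to 37286799 lay inside an OE-high domain at 37253800 to 37558999, a difference in length of 293600 bp. On chromosome 11 the KD domain at 62267400 to 62274599 lay inside an OE-high domain from 62088000 to 62285799. The KD domains measured 11600 bp on chromosome 2 and 7200 bp on chromosome 11, and each of those regions held 2 OE-high Fbxl19 peaks.

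Most shared regions, 1278 of 1516 (84.3%), had 1 domain in each list. In 125 regions an OE-high domain spanned several KD domains (up to 6), and in 98 a KD domain spanned several OE-high domains (up to 5). The second kind was common among long KD domains: of 222 shared regions with at least 50 kb of KD domain, 84 (37.8%, interval 31.4 to 44.6) held 2 or more OE-high domains. The longest shared region, 4537200 to 5006199 on chromosome 11, had 2 KD domains of 460800 bp in all and 7 OE-high domains of 209000 bp, with 9 OE-high Fbxl19 peaks and 1 Rnf20 peak. The 2 kinds of gap differed. Gaps between KD domains that an OE-high domain bridged were short, with a median of 1400 bp, and 9 of 173 (5.20%, interval 2.41 to 9.65) held an Fbxl19 peak. Gaps between OE-high domains under 1 KD domain had a median of 9600 bp, and 79 of 155 (51.0%, interval 42.8 to 59.1) held one. Per megabase these gaps held 8.15 (interval 3.73 to 15.5) and 37.4 (interval 30.3 to 45.8) Fbxl19 peaks.

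The ends of domains were examined in the 1278 regions with 1 domain in each list, which have 2556 KD ends. OE-high and KD ends lay within 1 kb of each other at 1132 ends (44.3%, interval 42.3 to 46.2), here called kept, and 388 of all ends were at the same position on the 200-bp grid that all domain ends follow. At 1195 ends (46.8%) the OE-high domain ran on by more than 1 kb, by a median of 7800 bp with an interquartile range of 3000 to 21400 bp. At 229 ends (8.96%, interval 7.88 to 10.1) the OE-high domain stopped short of the KD end by more than 1 kb. Left and right ends were alike, with 569 and 563 kept and 592 and 603 extended.

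Extension was mostly one-sided. In 630 of the 1278 regions (49.3%, interval 46.5 to 52.1) 1 end was kept and the other extended. Independent ends with the same single-end shares would give 41.4%, counting either order. Both ends were extended in 246 regions (19.2%, interval 17.1 to 21.5) and both kept in 192 (15.0%, interval 13.1 to 17.1). The one-sided regions had a median of 9200 bp in KD and 24900 bp in OE-high, and the kept end was the left in 320 and the right in 310. The sequence added at the extended end had a median of 8200 bp (interval 7400 to 9800).

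The kept end was the end with Fbxl19. An OE-high Fbxl19 summit lay within 1 kb of 594 of the 1132 kept KD ends (52.5%, interval 49.5 to 55.4) and of 195 of the 1195 extended ends (16.3%, interval 14.3 to 18.5). Around the centre of KD domains over 4 kb the same window held a summit in 43 of 1068 (4.03%, interval 2.93 to 5.39). In the 630 one-sided regions a summit was at the kept end only in 382, at the extended end only in 30, at both in 21 and at neither in 197. Of the 412 regions with a summit at 1 end, 92.7% (interval 89.8 to 95.03) thus had it at the kept end. The share was 92.7% in KD domains over 2 kb, where 1 summit cannot lie within 1 kb of both ends, 91.1% with lists of the same size and 92.8% without chromosomes 1, 11 and 17. These counts describe domain ends of 2 combined lists, and the domains are not replicates.

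The same counts of kept and extended ends can be read from the peaks, which is not a second line of evidence. Of the 805 KD ends with a summit within 1 kb, 594 (73.8%, interval 70.6 to 76.8) were kept and 195 (24.2%, interval 21.3 to 27.3) were extended, below the 46.8% over all ends. Of the 1751 ends without a summit, 538 (30.7%, interval 28.6 to 33.0) were kept and 1000 (57.1%, interval 54.8 to 59.4) were extended. How far the domain ran on at the other end did not follow the presence of Fbxl19, with a median of 8200 bp where the kept end had a summit and 8400 bp where it had none.

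**Figure D3:**
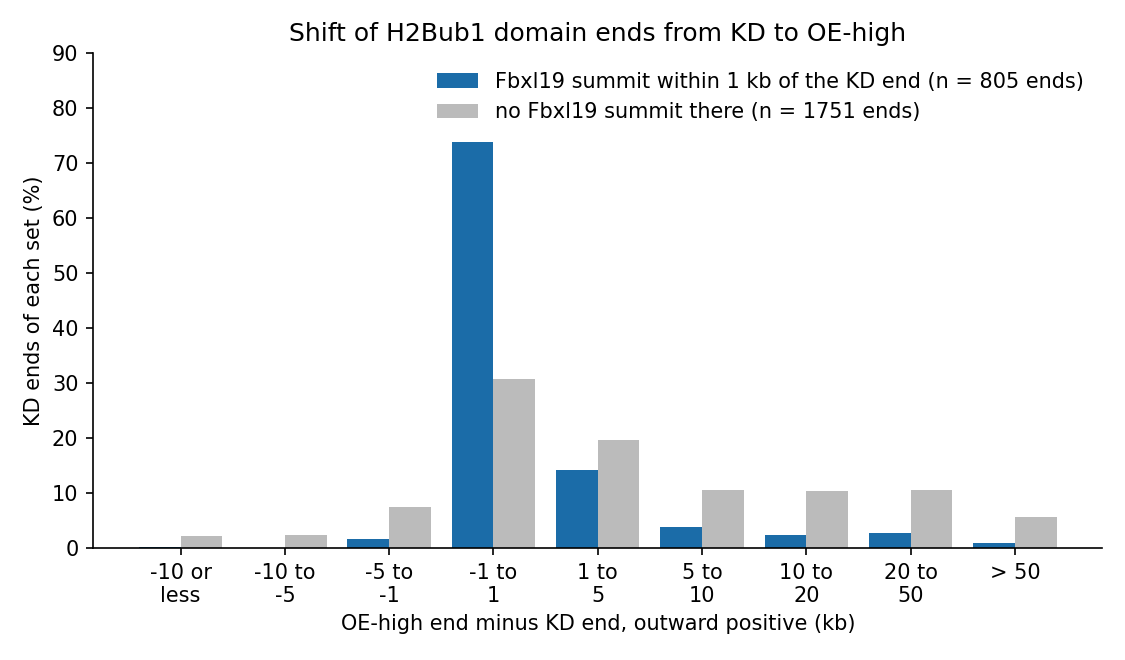
Percent of KD domain ends (vertical axis) by the distance in kb from the KD end to the OE-high end, outward positive, for 805 ends with and 1751 ends without an OE-high Fbxl19 summit within 1 kb. Ends with a summit concentrate within 1 kb of the OE-high end (73.8%), ends without one spread outward (57.1% beyond 1 kb).

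Rnf20 peaks and the Fbxl19 peaks of the OE-low clone followed the same pattern. A midpoint of an Rnf20 peak was within 1 kb of 334 kept ends (29.5%, interval 26.9 to 32.3) and of 119 extended ends (9.96%, interval 8.32 to 11.8). For OE-low Fbxl19 summits the shares were 8.83% (interval 7.25 to 10.6) and 3.77% (interval 2.76 to 5.01). In the one-sided regions with a peak at 1 end, it was the kept end in 165 of 187 regions for Rnf20 (88.2%, interval 82.7 to 92.5) and in 62 of 76 for OE-low Fbxl19 (81.6%, interval 71.0 to 89.6). The ES list had a domain end within 1 kb of 75.7% (interval 73.1 to 78.2) of kept KD ends and of 44.8% (interval 41.9 to 47.6) of extended ends. Ends that stayed in place between KD and OE-high were thus more often ends in unaltered ES cells too.

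The new outer ends were mostly away from Fbxl19. They still had a summit more often than the centres of KD domains over 4 kb (4.03%, interval 2.93 to 5.39). An OE-high Fbxl19 summit lay within 1 kb of 91 of the 1195 OE-high ends reached by extension (7.62%, interval 6.17 to 9.27), and an Rnf20 midpoint of 44 (3.68%, interval 2.69 to 4.91). Where OE-high stopped short of KD, the order was the other way round, with a summit at 67 of the 229 OE-high ends (29.3%, interval 23.4 to 35.6) and at 16 of the KD ends (6.99%, interval 4.05 to 11.1). Regions listed only in OE-high had a summit at 1 end in 2492 of 5545 cases (44.9%, interval 43.6 to 46.3) and at both ends in 112 (2.02%, interval 1.67 to 2.42).

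Summits lay more often inside than outside the KD end, and about evenly on both sides of the OE-high end. At kept ends, 616 summits within 1 kb had a median position 125.5 bp inside the KD end (interval 98 to 141), and 69.8% (interval 66.0 to 73.4) were inside. Relative to the OE-high end the median was 5 bp (interval -12 to 16), with 51.4% (interval 47.3 to 55.4) inside, and for OE-high-only regions it was 9 bp (interval -1 to 18). Kept ends with a summit had the OE-high end inside the KD end in 280 of 594 cases, beyond it in 87 and at the same position in 227. Without a summit these were 213, 164 and 161 of 538. These offsets are smaller than the 200-bp grid.

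**Figure D4:**
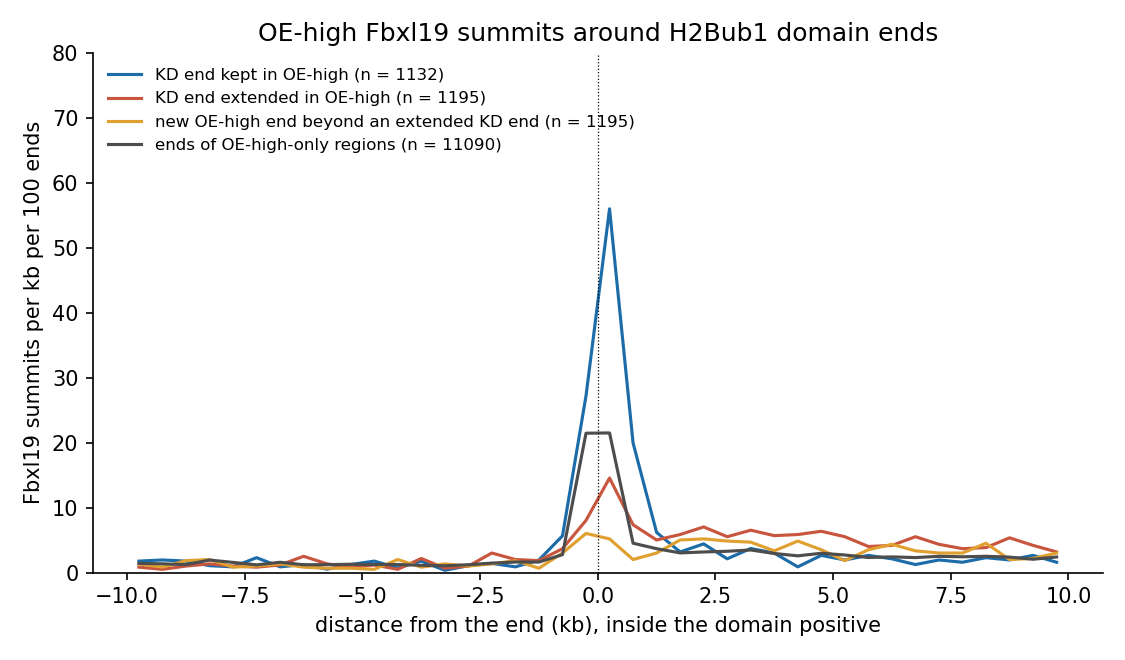
OE-high Fbxl19 summits per kb per 100 ends (vertical axis) by distance from a domain end in kb, inside positive, in 500-bp bins. In the bin just inside the end, kept KD ends have 56.0, ends of OE-high-only regions 21.5, extended KD ends 14.6 and the outer ends reached by extension 5.19. The outer ends are highest in the bin just outside, at 6.025.

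A kept, Fbxl19-marked end with a long run on the other side can be seen at single places, picked here after the values were seen from 34 one-sided regions with OE-high Fbxl19, OE-low Fbxl19 and Rnf20 at the kept end. On chromosome 9 the KD domain at 115194400 to 115219999 and the OE-high domain at 115151000 to 115219399 end together on the right, where an OE-high Fbxl19 peak spans 115218625 to 115219677, and OE-high ran 43400 bp further to the left. On chromosome 4 the KD domain at 107873000 to 107891399 and the OE-high domain at 107838000 to 107890799 share their right end at an Fbxl19 peak at 107889853 to 107890955, with 35000 bp added on the left. On chromosome 18 the KD domain at 32996600 to 33000199 and the OE-high domain at 32996800 to 33038799 share their left end, with 38600 bp added on the right. The Fbxl19 peaks at these kept ends had scores of 7.64, 7.26 and 16.6, against a list median of 10.7.

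A larger share of shared than of OE-high-only regions held an Fbxl19 peak, and a smaller share of the short KD-only regions did, although per megabase the KD-only regions held more peaks than the OE-high-only regions. The peaks were measured in the OE-high clone, and none were measured in KD cells. Peaks of that clone were found in 1234 of the 1516 shared regions (81.4%, interval 79.3 to 83.3), in 3546 of the 5545 OE-high-only regions (63.9%, interval 62.7 to 65.2) and in 21 of the 124 KD-only regions (16.9%, interval 10.8 to 24.7). The KD-only share depended on which domains were compared: it was 28.1% with domains of at least 2 kb, 46.5% with the top 50% of each list by score and 58.7% with lists of the same size, below the OE-high-only share in each. The order of the first 2 was the same on all 19 autosomes, where shared regions ranged from 67.1% to 89.6% and OE-high-only regions from 53.8% to 71.2%. In OE-high-only regions the peaks numbered 5233, with up to 15 in a region, and in shared regions 2266, with up to 17. Fbxl19 content also rose with the OE-high score, from 51.9% of domains in the lowest quartile to 79.4% in the highest. Domains that met a KD domain rose from 5.99% to 50.6% over the same quartiles. The classes were not compared at equal score.

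Longer regions held Fbxl19 more often in both classes, and the order of the classes was also seen within each length class from 5 kb upward. At 10 to 20 kb, 79.9% (interval 74.8 to 84.4) of shared and 59.6% (interval 56.7 to 62.4) of OE-high-only regions had an OE-high Fbxl19 peak. At 50 kb or more the shares were 88.4% (interval 85.1 to 91.2) and 80.1% (interval 77.7 to 82.4). At 2 to 5 kb the intervals overlapped, with 52.5% (interval 39.1 to 65.7) and 43.4% (interval 39.1 to 47.7). Under 2 kb no shared region had a peak (0 of 14, which allows a share of up to 23.2%), against 12.5% of 184 OE-high-only regions. KD-only regions had a lower share than OE-high-only regions in each length class, with overlapping intervals. Their share was 4.76% (interval 0.993 to 13.3) under 2 kb and 24.1% (interval 10.3 to 43.5) at 2 to 5 kb.

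**Figure D5:**
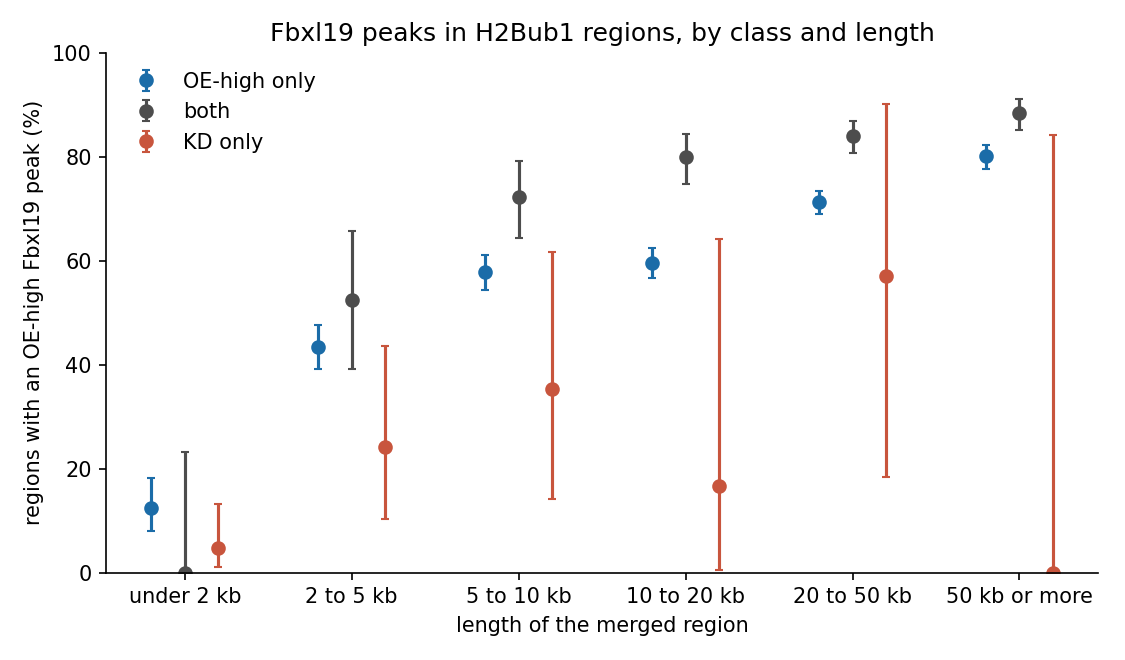
Percent of merged regions with an OE-high Fbxl19 peak (vertical axis) by length class, for regions listed only in OE-high, in both and only in KD, with exact 95% intervals. From 5 kb upward shared regions lie above OE-high-only regions, and KD-only intervals are wide because 124 regions are divided among 6 classes.

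Rnf20 and OE-low Fbxl19 peaks were also more frequent in shared than in OE-high-only regions. Rnf20 peaks lay in 50.5% (interval 48.0 to 53.1) of shared, 27.1% (interval 25.9 to 28.3) of OE-high-only and 33.9% (interval 25.6 to 42.9) of KD-only regions. OE-low Fbxl19 peaks lay in 21.4% (interval 19.3 to 23.5), 10.5% (interval 9.72 to 11.3) and 6.45% (interval 2.83 to 12.3). Fbxl19 of the OE-high clone and Rnf20 were both present in 44.5% (interval 42.0 to 47.1) of shared and 22.6% (interval 21.5 to 23.7) of OE-high-only regions. Neither was present in 191 shared regions (12.6%, interval 10.97 to 14.4) and in 1750 OE-high-only regions (31.6%, interval 30.3 to 32.8), so 1750 of the regions that KD lacked had neither peak. Of the OE-high-only regions, those that were also in the ES list had Fbxl19 in 74.2% (interval 71.5 to 76.8) and Rnf20 in 40.3% (interval 37.3 to 43.3), and those in neither other list 61.5% (interval 60.03 to 62.9) and 23.9% (interval 22.7 to 25.2).

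Counted per megabase, OE-high Fbxl19 peaks were densest in sequence that KD domains covered. Midpoints of peaks numbered 40.8 per Mb (interval 38.7 to 42.9) in the 36.1 Mb covered by both lists and 22.7 (interval 22.1 to 23.4) in the 209.7 Mb covered by OE-high alone. In the 5.87 Mb covered by KD alone they numbered 57.7 (interval 51.8 to 64.2), and in sequence covered by neither 3.05 (interval 2.98 to 3.12). Of the sequence covered by KD alone, 5.18 Mb lay in shared regions, with 57.1 per Mb (interval 50.8 to 64.0), and 0.691 Mb made up the KD-only regions, with 62.2 per Mb (interval 45.0 to 83.8). The latter rests on 43 midpoints, and 1 region held 13 of the 44 OE-high Fbxl19 peaks that overlapped KD-only regions. The sequence that OE-high added within shared regions had 14.3 per Mb (interval 12.9 to 15.8), and regions listed only in OE-high had 24.0 (interval 23.3 to 24.7). Sequence added next to KD domains was thus poorer in Fbxl19 peaks than regions that were new as a whole. This sets a part against a whole. The added sequence leaves out the KD-covered part of the same regions, where peaks were denser, and OE-high-only regions are counted entire.

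Seen from the 13669 OE-high Fbxl19 peaks, 7368 (53.9%, interval 53.1 to 54.7) lay in an OE-high H2Bub1 domain and 1976 (14.5%, interval 13.9 to 15.1) in a KD domain. For scale, OE-high domains covered 9.59% and KD domains 1.64% of the span of both lists, so the KD list had fewer peaks over far less sequence. Of all peaks, 5566 lay in an OE-high domain only and 174 in a KD domain only. Between the lowest and highest quartile of peak scores, the share in OE-high domains went from 51.1% (interval 49.4 to 52.7) to 60.4% (interval 58.7 to 62.1) and that in KD domains from 14.7% (interval 13.6 to 15.96) to 17.6% (interval 16.3 to 18.9).

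The 124 KD-only regions were few and short. Their median distance to the nearest OE-high domain was 87800 bp (interval 65800 to 132800), with 20 (16.1%, interval 10.1 to 23.8) within 10 kb of one and 67 (54.0%, interval 44.9 to 63.0) within 100 kb. From OE-high-only regions to the nearest KD domain, in a list with fewer domains, the median was 362800 bp. By score they were led by 123370800 to 123371399 on chromosome 9 (score 69.8), which held an Rnf20 peak and an ES domain, followed on chromosome 18 by 90771600 to 90772199 and on chromosome 3 by 95848400 to 95848999, which held none of the other features. Each was 600 bp long, and whether they lie in repeats was not tested. The longest were 57600 bp on chromosome 11 from 5911600 to 5969199, 55400 bp on the X chromosome from 166577400 to 166632799 and 48400 bp on chromosome 7 from 67002000 to 67050399. All 3 overlapped an ES domain and none held an Fbxl19 peak, and the last held 4 Rnf20 peaks. The KD-only regions held 44 OE-high Fbxl19 peaks, 13 of them in 1 region that was picked for that number, 47687000 to 47728799 on chromosome 6, with a score of 22.5, 4 OE-low Fbxl19 and 13 Rnf20 peaks, and an ES domain.

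The highest scores among OE-high-only regions were on chromosome 10, at 80289400 to 80293599 and at 79167200 to 79174999, each with 1 OE-high Fbxl19 peak. The third, 110013400 to 110080199 on chromosome 12, scored 41.6 and held 3 OE-high Fbxl19 and 2 Rnf20 peaks. The longest were 100428400 to 100801999 on chromosome 12, 88552600 to 88905799 on chromosome 3 (353200 bp, with 6 OE-high Fbxl19 and 4 Rnf20 peaks) and 149655800 to 149985999 on chromosome 4 (330200 bp, with 2 and 0). Those with the most Fbxl19 peaks were 137370000 to 137586799 on chromosome 1 (15 peaks), 76443600 to 76648599 on chromosome 15 (13 peaks) and 88207800 to 88262599 on chromosome 12. The last packed 11 OE-high Fbxl19, 4 OE-low Fbxl19 and 5 Rnf20 peaks into 54800 bp. None of these 9 regions overlapped an ES domain, which was also true of 4470 of all 5545 OE-high-only regions.

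Among shared regions the highest scores belonged to short regions with nearly the same extent in both lists. The first, 39979600 to 39985999 on chromosome 17, measured 6400 bp in OE-high and 6200 bp in KD and held 1 peak each of OE-high Fbxl19, OE-low Fbxl19 and Rnf20. Its scores were 221.7 in OE-high and 306 in KD, against list medians of 11.6 and 8.77. No repeat annotation was used, so whether these short, high-scoring regions lie in repeats was not tested. The next, 57391200 to 57391999 on chromosome 16 and 5860000 to 5860999 on chromosome 3, held an Rnf20 peak and no Fbxl19 peak. Of the 14 shared regions under 2 kb, 13 held an Rnf20 peak, against 22 of 184 OE-high-only and 25 of 63 KD-only regions of that length. After the region on chromosome 11 described above, the longest were that on chromosome 14 and 103791600 to 104116599 on chromosome 12, where a KD domain of 199400 bp lay inside an OE-high domain of 325000 bp with 10 OE-high Fbxl19 peaks.

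Shared regions with the most Fbxl19 peaks included long KD domains that each met 2 or more OE-high domains. The first, 183817600 to 184062999 on chromosome 1, had 17 OE-high Fbxl19 peaks, 243000 bp of KD domain in 1 piece and 142000 bp of OE-high domain in 2. The second, 134160600 to 134411199 on chromosome 1, had 14 peaks, 250600 bp of KD domain and 145000 bp of OE-high domain in 3 pieces. In the third, 76813200 to 76958799 on chromosome 14, the KD domain was the shorter, with 12 OE-high Fbxl19 peaks, 17800 bp of KD domain and 145600 bp of OE-high domain.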

How the data were processed

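Peak and domain lists of 6 of the 8 deposited files were used, and the 2 lists of differentiated cells were left out. Tools listed, per the submitters' processing notes, are MACS and BWA 0.5.9-r16, the build is mm9, and no order or role is stated. Per the file headers, the H2Bub1 lists are combined sets from BCP, a caller of broad domains. The authors' deposited score per domain or peak has no stated formula and was used only to rank within a list. The authors' domain length is in base pairs. Groups follow the sample titles. Whether the third OE-high H2Bub1 sample entered the list is unknown.

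H2Bub1 and Rnf20 lists were read as counted from 0 and Fbxl19 lists as counted from 1, and positions are printed counted from 1. OE-high and KD domains that overlapped by 1 bp or more were joined into regions. Ends were compared within 1 kb, and Fbxl19 summits were taken as listed. Regions named are, per class, the 3 with the highest score (the lower of both lists when shared) and the 3 longest. To these were added the 3 shared regions with the most added sequence and, among shared and OE-high-only regions, the 3 with the most Fbxl19 peaks. The members, measures and rules were chosen with earlier results of these data known, and one-sided extension was added as a measure after the ends had been compared. No genome or annotation of mm9 was used here, so gene lists were not applied and no region was assigned to a gene. Alternatives changed the overlap, list size, minimum length, bridging, chromosomes, Fbxl19 list and distance. Code was tested on simulated data. Python 3.11.15, NumPy 2.4.6, SciPy 1.17.1 and matplotlib 3.10.9 were used.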

Additional observations from a re-analysis of the deposited data

How the results depend on the processing

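Of 83 values of 11 results under alternatives, 45 stayed within the interval of the reported value and 38 did not. Shared regions had Fbxl19 more often than OE-high-only regions in 8 of 8 settings, and kept ends more often than extended ends in 10 of 10. With lists of the same size, the shared share of KD domains was 53.5% and of OE-high domains 50.5%, the length ratio 1.13 and kept ends 47.4%. Fbxl19 was then in 75.8% of OE-high-only, 84.3% of shared and 58.7% of KD-only regions, at 18.7% of extended ends and at 23.9 per Mb in added sequence, so the Fbxl19 share of KD-only regions depends on list size. With the top 50% of each list by score these were, in the same order, 78.2%, 20.01%, 1.38, 46.8%, 74.2%, 85.1%, 46.5%, 19.8% and 25.4 per Mb, with 56.4% at kept ends. An overlap of 50% of the query gave 90.8% of KD and 14.9% of OE-high domains shared. Domains of at least 2 kb gave 96.1% of KD domains shared and Fbxl19 in 65.8% of OE-high-only and 28.1% of KD-only regions. OE-low Fbxl19 peaks, a shorter list, lay in 10.5% of OE-high-only, 21.4% of shared and 6.45% of KD-only regions, at 8.83% of kept and 3.77% of extended ends, at 2.81 per Mb in added sequence and, in one-sided regions with a summit at 1 end, at the kept end in 81.6%. Within 400 bp, 33.8% of ends were kept, with Fbxl19 at 46.1% of kept and 10.3% of extended ends, and within 2 kb 55.0% were kept, with Fbxl19 at 19.8% of extended ends. Leaving out chromosomes 1, 11 and 17, an alternative chosen after seeing the data, gave 17.7% of OE-high domains shared and a length ratio of 1.57. The causes of these shifts were not tested. Bridging within 1 kb and autosomes only moved no value outside its interval.

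No paired analysis was possible because the lists are combined over samples and their columns carry no replicate number. For the same reason leaving out single samples was not possible. Lists hold domains past a threshold of the authors, so absence from a list does not show absence of H2Bub1, and depth per sample is unknown.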
